A study of Mus musculus with 7 samples.

Results

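*Psmb11*, *Prss16*, *Ly75*, *Dll4*, *Ccl25*, *Cxcl12*, *Ackr4* and *Tbata* are 8 genes of the thymic cortical programme, chosen here by name out of 20839 genes listed in at least 1 of 7 single-cell RNA-seq libraries of mouse thymic epithelium. All 8 passed the filter on low values, which kept 11216 genes. They were followed by their levels, detection and co-detection in the 8220 of 8453 cells with no UMI of *Ptprc*, the gene of the leukocyte antigen CD45 (a UMI is a counted RNA molecule).

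Each library pooled 3 thymi of C57BL/6 mice. The lineage tracing library came from 6-week-old mice that carried Aire-CreERT2 together with the R26-CAG-Stopfl-zsGreen reporter, given 2 mg tamoxifen every other day for 10 days, so that cells in which the *Aire* promoter drove the inducible Cre during the treatment, and their progeny, could be marked by ZsGreen. In the other 6 libraries the mice had 3 injections of 100 µg antibody within 1 week. Isotype controls were taken at week 2 (4 weeks of age) and week 10 (12 weeks of age), and mice given anti-RANKL, an antibody against a cytokine on which the maturation of medullary epithelium depends, at weeks 2, 4, 6 and 10 (4, 6, 8 and 12 weeks of age). The labels and methods speak of sorted medullary epithelial cells, while the study elsewhere describes total thymic epithelium gated as EpCAM+ CD45-. An antibody to the cortical marker Ly51 is among those it lists, and whether these cells were gated on it is not given in the sources used here. Each treatment and time is 1 library of pooled mice, and only the isotype control has more than 1.

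The thymic cortex is where immature T cells become committed and are selected for weak recognition of self. Its epithelial cells attract progenitors with *Ccl25* and *Cxcl12*, commit them to the T lineage through the Notch ligand *Dll4*, and display a particular set of self peptides made by the thymoproteasome and the serine protease encoded by *Prss16*. *Foxn1* is the transcription factor that establishes thymic epithelial identity, and *Psmb11*, *Ccl25* and *Dll4* are among the genes known to depend on it.

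Cells were divided by the level of 1 marker each. The deposited values are natural logs of 1 plus the UMIs per 10000 UMIs of the cell. On this scale the *Aire* gate is *Aire* above 1.5, the *Ccl21a* gate is *Ccl21a* above 4 and the *Trpm5* gate is any *Trpm5*. The *Aire* gate held 1663 cells, the *Ccl21a* gate 3287 and the *Trpm5* gate, whose marker defines tuft cells, 356. The 2685 cells that passed no gate are called the neither gate, and 229 cells that passed several were left out of the comparison of gates. The neither gate made up 21.8% to 40.2% of the *Ptprc*-negative cells of a library. Summed levels there of the 5 epithelial markers were 43.2 to 58.6 UMIs per 10000, and of 7 T-lineage markers 0.193 to 0.573, against 1.48 to 27.0 in cells with *Ptprc*. The 5 myeloid and dendritic markers summed to 9.14 to 21.8 in the neither gate, which overlapped the 7.99 to 24.6 of the cells with *Ptprc*, mostly through Cst3 (6.29 to 10.5) and Lyz2 (0.488 to 13.4), while Cd68, Fcer1g and Tyrobp each stayed at or below 0.414. Medullary markers (*Fezf2*, *Cd80*, *Cd40* and *Tnfrsf11a*) still summed to 1.79 to 7.55 in the neither gate, below the 9.10 to 14.4 of the *Aire* gate. The neither gate is therefore a remainder and not a cortical population by name. Median depth per cell ran from 4299.5 to 16809 UMIs between libraries.

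*Psmb11* (chr14:54621433-54629556, + strand, GRCm38) encodes β5t, the catalytic subunit that defines the thymoproteasome. Its level in the neither gate was 0.234, 0.640 and 1.16 UMIs per 10000 (lowest, median and highest of the 7 libraries), and in the *Aire* gate 0.0875, 0.182 and 0.268. The neither gate was higher in each of the 7 libraries, although the ranges touch. The within-library difference was 1.39 on the log2 scale (SE 0.39, 28 pools of gate and library, limma adjusted p = 0.00780).

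*Prss16* (chr13:22002173-22009742, - strand) encodes the thymus-specific serine protease, which acts in peptide processing for class II presentation in cortical cells. It stood at 0.617, 1.91 and 2.51 UMIs per 10000 (lowest, median, highest) in the neither gate and at 0.312, 0.443 and 1.36 in the *Aire* gate. The order was the same within all 7 libraries, and the log2 difference was 1.5 (SE 0.39, limma adjusted p = 0.00420). The highest *Aire*-gate value came from anti-RANKL week 4, where that gate held 20 cells.

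*Ly75* (chr2:60292103-60383303, - strand) encodes DEC-205, an endocytic receptor of cortical epithelium and dendritic cells that takes up dying cells. The 7 neither-gate levels ran from 0.187 through a median of 0.323 to 0.404 UMIs per 10000, and those of the *Aire* gate from 0.0882 through 0.120 to 0.283. *Ly75* was higher in the neither gate of every library, by 0.71 on the log2 scale (SE 0.20, limma adjusted p = 0.00942).

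*Cxcl12* (chr6:117168535-117181367, + strand) encodes the ligand of *Cxcr4* and helps to draw progenitors into the cortex and hold them there. Its levels had a lowest, median and highest value of 0.843, 2.36 and 5.95 UMIs per 10000 in the neither gate and of 0.0646, 0.0982 and 0.762 in the *Aire* gate. No library overlapped between the gates, and how many of all genes part in this way was not counted. The log2 difference of 3.08 (SE 0.34, limma adjusted p = 7.25e-07) was the largest of the 8 genes.

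*Ackr4* (chr9:104084157-104126933, - strand) encodes a scavenger that binds *Ccl19*, Ccl21 and *Ccl25* without signalling through G proteins and removes them. Levels in the neither gate were 0.254, 0.576 and 1.26 UMIs per 10000 (lowest, median and highest). In the *Aire* gate they reached no more than 0.218, with a median of 0.0160, and the 53 *Aire*-gate cells of anti-RANKL week 2 held no UMI (3 counts would be 0.0293 per 10000). Again no library overlapped, and the log2 difference was 2.16 (SE 0.26, limma adjusted p = 1.5e-06).

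*Ccl25* (chr8:4325210-4360020, + strand), which encodes the ligand of *Ccr9* and a main attractant of thymus-seeding progenitors, went the other way. It had a lowest, median and highest level of 1.98, 3.59 and 4.33 UMIs per 10000 in the neither gate and of 3.56, 6.11 and 22.3 in the *Aire* gate. Every library was lower in the neither gate, with a log2 difference of -1.24 (SE 0.35, limma adjusted p = 0.00881). Without the anti-RANKL week 4 library it was -1.04 and the limma adjusted p 0.0525.

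*Tbata* (chr10:61171954-61188841, + strand), named for its expression in thymus, brain and testis, encodes a protein of thymic epithelium linked to limits on its proliferation. Its levels were 3.72, 7.81 and 9.74 UMIs per 10000 (lowest, median, highest) in the neither gate and 9.56, 12.7 and 27.1 in the *Aire* gate. It too was lower in the neither gate of every library, by a log2 difference of -1.09 (SE 0.27, limma adjusted p = 0.00313).

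*Dll4* (chr2:119325784-119335962, + strand) was sparse in all gates. It ranged from 0.0420 to 0.124 UMIs per 10000 in the neither gate and from 0.0702 to 0.205 in the *Aire* gate, which was higher in 5 of the 7 libraries. The log2 difference of -0.34 (SE 0.18, limma adjusted p = 0.159) did not pass the threshold of 0.05. No neither-gate cell held more than 9 of the 221 *Dll4* UMIs found there over all libraries.

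**Figure D1:**
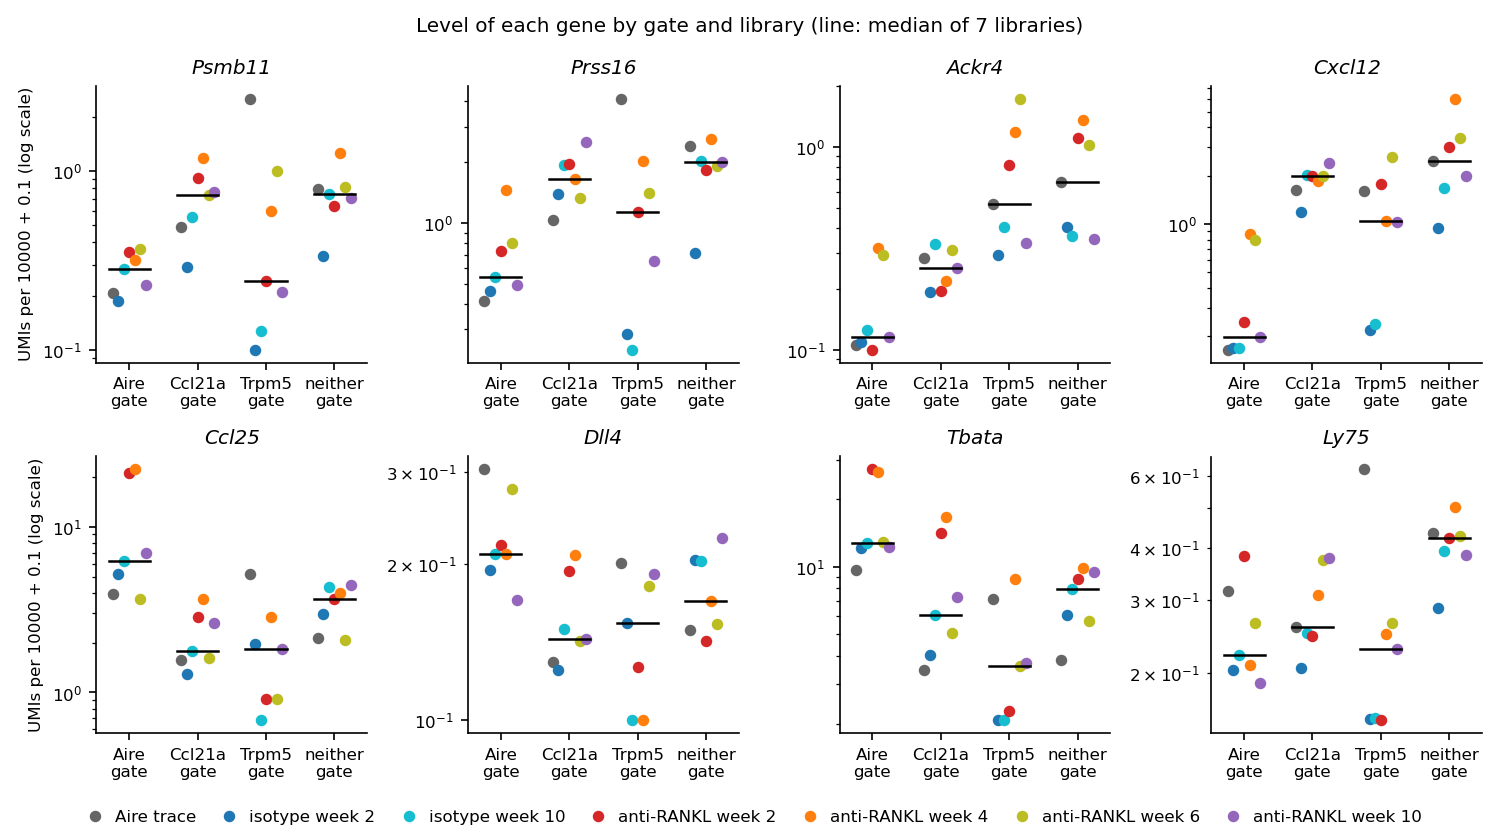
UMIs per 10000 (log axis) of each of the 8 genes in the *Aire*, *Ccl21a*, *Trpm5* and neither gates, 1 point per library (7 libraries). *Cxcl12* and *Ackr4* separate the neither gate from the *Aire* gate without overlap, while *Ccl25* and *Tbata* have their highest medians in the *Aire* gate. The share of all genes that separate in this way was not counted.

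Against the *Aire* gate, 5 of the 8 genes were thus higher in the neither gate, where 22.1% of all 11216 genes were called higher, and 2 were lower, where 10.4% were called lower. The median difference of the 8 was 1.05 on the log2 scale, and of all genes 0.12. The protease genes, the endocytic receptor gene, *Cxcl12* and the scavenger gene were on the neither side, and *Ccl25* and *Tbata* on the *Aire* side. The share of all genes whose library levels do not overlap was not counted for any pair of gates. With only the 3 libraries of mice not given anti-RANKL, 2 of the 8 (*Cxcl12* and *Ackr4*) were called, where 1055 of 11230 genes were called higher and 557 lower, at fewer residual degrees of freedom.

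The *Ccl21a* gate was set against the neither gate in the same way. *Psmb11* had a median of 0.635 UMIs per 10000 in the *Ccl21a* gate against 0.640 in the neither gate, and *Cxcl12* 1.88 against 2.36. Only *Ackr4* passed the test, with 0.0927, 0.155 and 0.232 UMIs per 10000 (lowest, median, highest) in the *Ccl21a* gate, below the neither gate in all 7 libraries and without overlap. Its difference was 1.40 on the log2 scale (SE 0.26, limma adjusted p = 0.000328), where 13.7% of all genes were called higher and 7.22% lower. *Ly75* (0.52, SE 0.20, limma adjusted p = 0.0757) and *Ccl25* (0.64, SE 0.35, limma adjusted p = 0.228) were also at higher values in the neither gate of all 7 libraries but did not pass. For *Psmb11* the difference was 0.14 with an SE of 0.39, which leaves room for a difference of either sign.

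Against the neither gate, 4 of the 8 genes were lower in the *Trpm5* gate, the gate of the tuft marker, and none was higher, where 16.1% of all genes were called lower and 17.3% higher. They were *Cxcl12* (-1.45, SE 0.34, limma adjusted p = 0.00212), *Ly75* (-0.81, SE 0.20, limma adjusted p = 0.00351), *Tbata* (-0.96, SE 0.27, limma adjusted p = 0.00836) and *Ccl25* (-0.99, SE 0.35, limma adjusted p = 0.0341). For *Ackr4* the difference was -0.09 (SE 0.26, limma adjusted p = 0.820). This count moved with single libraries: it was 2 without isotype week 10, when *Ccl25* and *Tbata* no longer passed, and 6 without the lineage tracing library, when *Psmb11* and *Prss16* also passed. Over 20 alternatives, single libraries left out among them, the call was lost in 9 for *Ccl25*, 3 for *Tbata*, 1 for *Ly75* and 0 for *Cxcl12*. *Psmb11* gained a call in 9 and *Prss16* in 7.

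In the lineage tracing library the *Trpm5* gate stood at 2.43 UMIs per 10000 of *Psmb11* and 4.02 of *Prss16*, the highest of any gate and library for both. These values rest on few cells: 3 of the 47 held 96.7% of the 121 *Psmb11* UMIs and 3 held 92.5% of the 200 *Prss16* UMIs. Whether such cells are doublets was not tested, and the study names an upper limit on genes per cell but no doublet caller.

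Set against the *Aire* gate, the *Trpm5* gate was higher in *Ackr4* (log2 difference 2.07, SE 0.26, limma adjusted p = 4.41e-07) and *Cxcl12* (1.63, SE 0.34, limma adjusted p = 0.000358), where 32.8% of all genes were called higher. It was lower in *Ccl25* (-2.23, SE 0.35, limma adjusted p = 1.23e-05), *Tbata* (-2.05, SE 0.27, limma adjusted p = 1.02e-06) and *Dll4* (-0.61, SE 0.18, limma adjusted p = 0.00731), where 18.3% were called lower. For *Tbata* the 7 *Trpm5*-gate levels, 1.96 to 8.67 UMIs per 10000, all lay below the 7 *Aire*-gate levels.

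**Figure D2:**
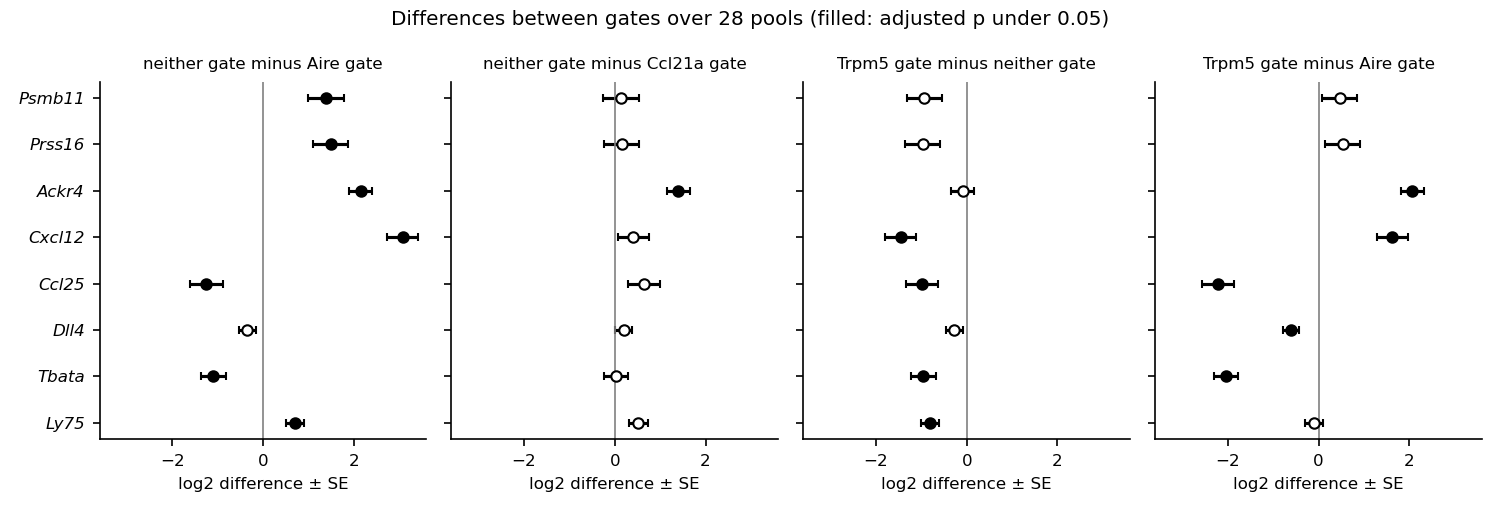
Log2 difference between gates within a library for each of the 8 genes, with its standard error, in the 4 comparisons fitted with limma over 28 pools. *Cxcl12* (3.08) and *Ackr4* (2.16) lie farthest above 0 for neither minus *Aire*, and *Ackr4* (1.40) is the single gene called for neither minus *Ccl21a*.

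Depth differs between gates and libraries, so detection was compared after thinning each cell to 2000 UMIs. This left out 172 of the 8220 cells, all from 2 libraries, with 46 of the 2685 in the neither gate, 106 of the 3287 in the *Ccl21a* gate and 4 of the 1663 in the *Aire* gate. The median share of neither-gate cells with the gene over the 7 libraries was then 6.51% for *Psmb11*, 14.3% for *Prss16*, 11.4% for *Ackr4*, 25.4% for *Cxcl12* and 6.60% for *Ly75*. In the *Aire* gate the same shares were 2.62%, 7.07%, 0.393%, 1.46% and 3.93%. For *Ccl25*, *Tbata* and *Dll4* the *Aire* gate had the higher shares, 26.9%, 64.2% and 2.2%, against 19.3%, 36.2% and 1.60% in the neither gate. Shares and levels therefore put the *Aire* and neither gates in the same order for each of the 8 genes.

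Cells with *Ptprc*, which should be leukocytes, served as the reference for background. The 233 such cells had a median of 10161 UMIs, against 7247 in the neither gate, and when thinned 6.40% of them held *Psmb11*, against 6.60% of neither-gate cells from all libraries together. For *Tbata* the shares were 33.4% and 35.4%, and for *Ccl25* 18.4% and 19.0%. *Ackr4* (6.27% and 11.6%), *Cxcl12* (11.5% and 27.5%) and *Prss16* (10.7% and 14.6%) stood further above the reference, as did *Ly75* (4.29% and 6.49%) and *Dll4* (1.00% and 1.63%). Unthinned, 13.4% of neither-gate cells held a UMI of *Psmb11* (359 of 2685, exact 95% interval 12.1% to 14.7%) and 15.5% of the reference (36 of 233, 11.1% to 20.7%). The unthinned shares were 39.5% and 25.8% for *Cxcl12*, 22.3% and 21.5% for *Ackr4* and 34.6% and 30.5% for *Prss16*. These shares sum cells over 7 unlike libraries at unequal depth, so their intervals do not cover the spread between libraries and no member is called above background from them.

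The reference was itself largely epithelial by RNA, since only 41 of the 233 cells lacked *Epcam*. In those 41 cells, at a median of 5674 UMIs, the thinned shares were 2.47% for *Psmb11*, 4.33% for *Prss16*, 1.09% for *Cxcl12*, 1.93% for *Ackr4*, 2.97% for *Ly75*, 10.2% for *Ccl25* and 19.0% for *Tbata*. *Dll4* was seen in 0 of the 41, which allows a share of up to 8.60% by the exact interval. Intervals here cover counting error only.

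A few cells held most of the RNA of several of the genes. Over the 7 libraries, 5% of the neither-gate cells (135 cells) held 82.9% of the *Psmb11* UMIs, 71.5% of those of *Prss16* and 75.4% of those of *Ccl25*. The same share of cells held 61.3% of the *Tbata* UMIs, 50.4% of those of *Ackr4*, 46.7% of those of *Cxcl12* and 45.9% of those of *Ly75*. For *Dll4*, found in only 148 of the 2685 cells, it was 94.1%, so the measure is also high for a gene that is seldom detected. For *Psmb11*, 36 cells with at least 10 UMIs carried 50.9% of the gene's 1449 UMIs, while 200 cells carried 1 UMI each. *Ackr4* and *Cxcl12* were spread over more cells, at up to 16 UMIs of *Ackr4* in a cell.

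The genes were found in the same cells more often than their separate shares give. At 2000 UMIs, the observed over the expected share of neither-gate cells with both genes was above 1 in all 7 libraries for 20 of the 28 pairs. It was highest for *Psmb11* with *Prss16*, with a median of 4.46 over libraries (1.96 to 6.73), followed by *Psmb11* with *Dll4* (3.56) and *Psmb11* with *Ly75* (3.52). The pair of *Ackr4* and *Cxcl12* had a median of 2.94 (1.24 to 6.40). For *Ackr4* the median was 0.906 with *Tbata*, above 1 in 1 of 7 libraries, 0.715 with *Dll4*, above 1 in 3, and 1.2 with *Ccl25*, above 1 in 6. The ratios depended on depth: for *Psmb11* with *Prss16* the median was 2.85 at 4000 UMIs and 1.81 at full depth, where other pairs, among them *Ackr4* with *Cxcl12* (2.36) and *Psmb11* with *Ackr4* (2.26), were higher. In the *Ccl21a* gate 24 of the 28 pairs were above 1 in all 7 libraries, with higher medians for *Psmb11* with *Dll4* (5.94) and with *Ccl25* (5.22) than for *Psmb11* with *Prss16* (4.58). In the *Aire* gate 4 pairs were, and *Psmb11* with *Prss16* had a median of 1.14. Pairs of other genes were not counted, and the part of doublets in these ratios was not tested.

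At full depth, 304 of the 2685 neither-gate cells held 5 or more of the 8 genes, from 6.30% of cells in isotype week 10 to 21.3% in anti-RANKL week 2. All 8 were found together in 10 neither-gate cells. In the deeper *Aire* gate 43 of 1663 cells held 5 or more, and 301 neither-gate cells held none. In the *Ccl21a* gate 304 of 3287 cells held 5 or more (5.92% to 13.9% by library), as did 26 of the 233 cells with *Ptprc*.

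Neither-gate cells were then divided by whether they held a UMI of *Psmb11*, which left 40 to 80 cells with it per library. *Prss16* had a median of 7.37 UMIs per 10000 over libraries in cells with *Psmb11* and 0.555 in those without, a median log2 difference of 3.35 (1.75 to 5.09). *Cxcl12* (8.54 against 1.28), *Ccl25* (12.1 against 1.45) and *Tbata* (27.6 against 4.04) were higher in cells with *Psmb11* in all 7 libraries as well, as were *Ly75* (0.658 against 0.242) and *Dll4* (0.173 against 0.0432). Within the neither gate *Ccl25* and *Tbata* thus went with *Psmb11*, although between gates they went with *Aire*. How many of all genes were higher in all 7 libraries under this split was not counted.

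*Ackr4* was higher in cells with *Psmb11* in 6 of 7 libraries, with a log2 difference from -0.36 in anti-RANKL week 4 to 2.46. Among genes outside the 8, the keratin gene *Krt8* was higher in all 7 libraries (median log2 difference 0.69) and *Foxn1* in 6 (0.49). *Krt5*, a keratin of medullary cells, was higher in 4 (0.04) and *Fezf2*, a transcription factor of medullary cells, in 3 (-0.36). *Enpep*, the gene of the cortical marker Ly51, was higher in 5 (0.84), on 1 to 16 UMIs per library in cells with *Psmb11*. *Ccl21a* was higher in 4 (0.0045). Median depth was greater in cells with *Psmb11* in 5 of 7 libraries (4860 to 12183 UMIs with it, 3567 to 14242 without), and no test was made of these differences between cells of the same library.

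**Figure D3:**
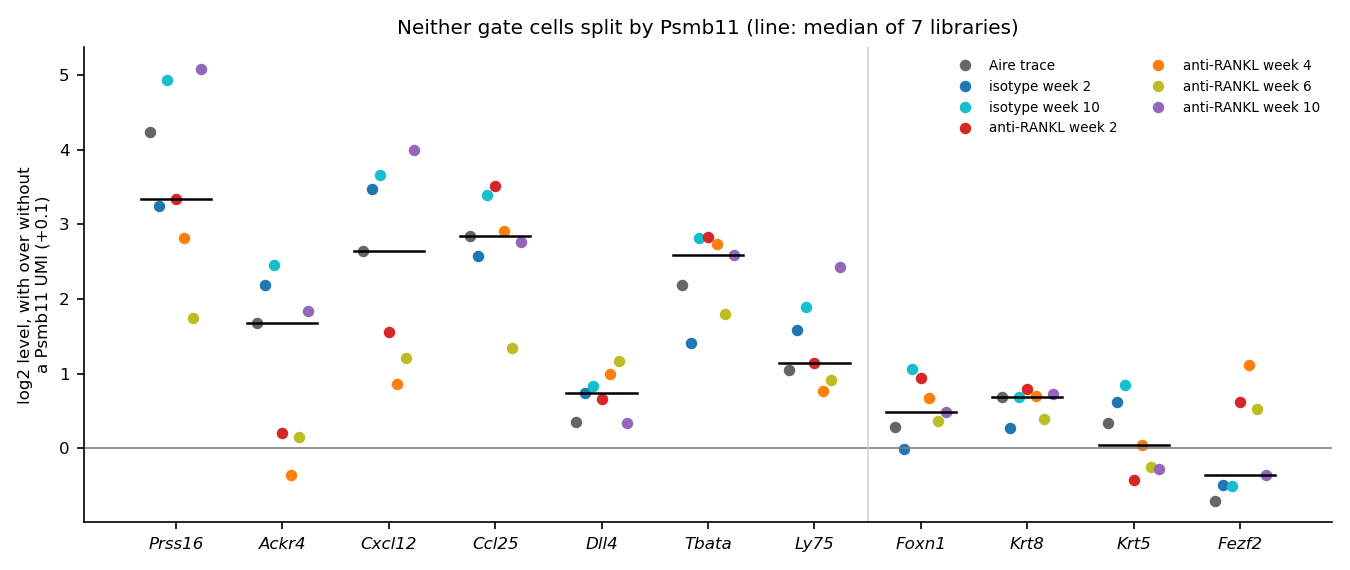
Log2 difference in level between neither-gate cells with and without a *Psmb11* UMI, 1 point per library (7 libraries), for the other genes of the 8 and for markers. *Prss16* lies highest (median 3.35), all 7 points are above 0 for *Cxcl12*, *Ccl25*, *Tbata*, *Ly75* and *Dll4*, and *Krt5* and *Fezf2* scatter around 0.

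Over the 28 pools of gate and library, with each library centred on its own mean, the 8 genes fell into groups by Pearson's r, given here as a description since the pools of a library share their cells' source and depth. *Psmb11* went with *Prss16* (0.89), *Ly75* (0.76) and *Cxcl12* (0.73), and *Prss16* with *Cxcl12* (0.84). *Ackr4* went with *Cxcl12* (0.65) and against *Tbata* (-0.68) and *Ccl25* (-0.56). *Ccl25* went with *Tbata* (0.89) and *Dll4* (0.68).

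Among all genes tested other than the gate markers, those nearest to *Psmb11* included *Prss16* (0.89) and *P4ha3* (0.87), a prolyl hydroxylase subunit for collagen. For *Cxcl12* they included *Ctsd* (0.93), the lysosomal protease cathepsin D, and *Itm2b* (0.92). *Ackr4* had *Ivd*, *Mat2a* (both 0.91) and *Thra* (0.90), a thyroid hormone receptor. The genes nearest to *Tbata* were *Sphk1* (0.93), a sphingosine kinase, *Foxn1* (0.92) and *Ccl25* (0.89), so *Foxn1* RNA followed the *Aire* side of the split. *Ccl25* had *Cep112*, *Tbata* and *Tmem173*, the gene of the DNA-sensing adaptor STING (0.89 each). Those of *Prss16* were *Psmb11* (0.89), *Pltp* (0.87) and *P4ha3* (0.86), of *Ly75* *Rasa3* (0.79), *Bgn* (0.79) and *Psmb11* (0.76), and of *Dll4* *Atcayos* (0.82), *Slc22a7* (0.81) and *Twf2* (0.79).

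**Figure D4:**
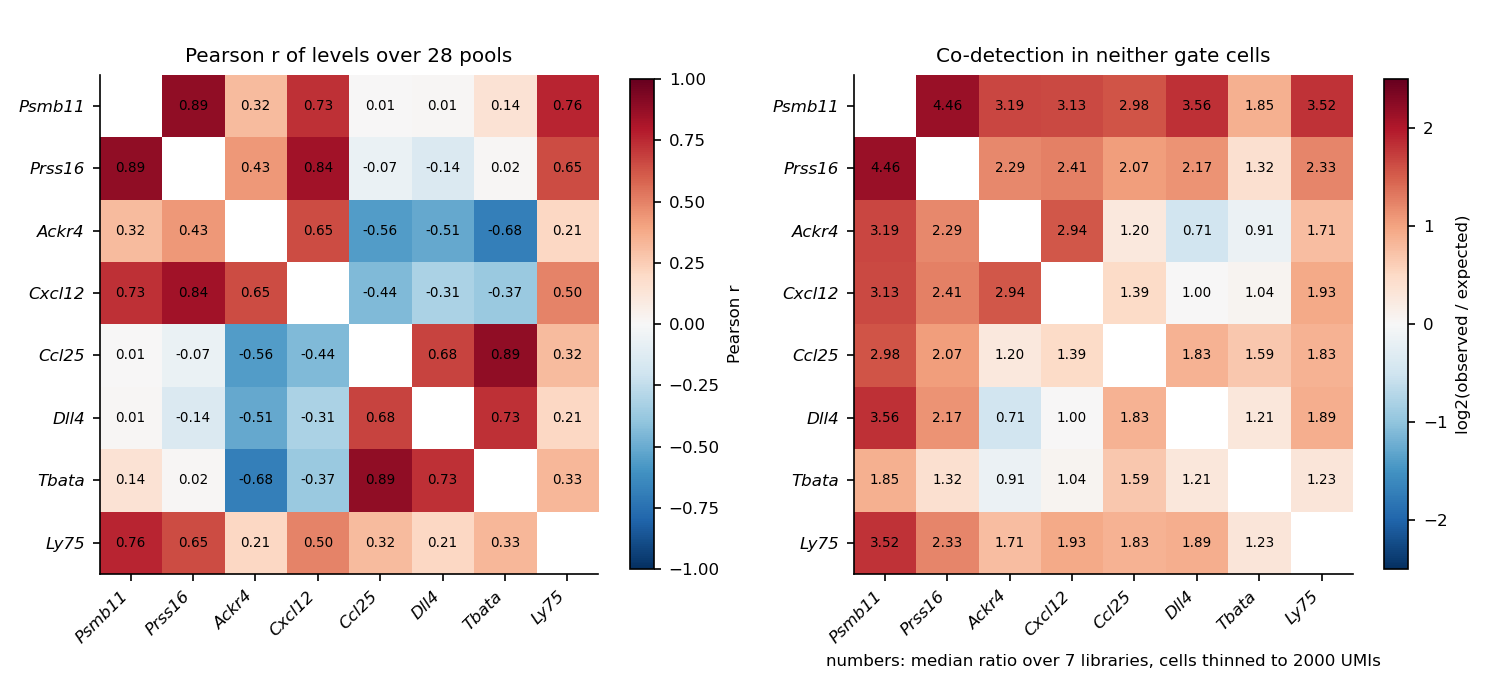
Pearson's r between the 8 genes over 28 library-centred pools, beside the median observed over expected share of neither-gate cells with both genes after thinning to 2000 UMIs. *Psmb11* and *Prss16* are the closest pair in both panels (0.89 and 4.46), and *Ackr4* with *Tbata* is low in both (-0.68 and 0.906).

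Because these genes include several that depend on *Foxn1*, the 250 bases before each RefSeq transcription start (GRCm38.p6) were searched for GACGC, the core of the motif bound by *Foxn1*, and for its reverse complement GCGTC. Starts were found for 7 of the 8 genes, in 8 entries. The core was present in 3 of them, in *Psmb11*, *Cxcl12* and a start of *Ccl25*, against 22.6% of all 32851 windows, so the share among these few entries says little. The windows of the genes that carry it are shown, together with that of *Tbata*, the member whose pool levels followed *Foxn1* most closely, with the motif letters in capitals. They are chr14:54625060-54625309 (+) for *Psmb11*, chr6:117168285-117168534 (+) for *Cxcl12*, chr8:4324960-4325209 (+) for the outer start of *Ccl25*, chr8:4349338-4349587 (+) for its inner start and chr10:61171714-61171963 (+) for *Tbata*.
Psmb11: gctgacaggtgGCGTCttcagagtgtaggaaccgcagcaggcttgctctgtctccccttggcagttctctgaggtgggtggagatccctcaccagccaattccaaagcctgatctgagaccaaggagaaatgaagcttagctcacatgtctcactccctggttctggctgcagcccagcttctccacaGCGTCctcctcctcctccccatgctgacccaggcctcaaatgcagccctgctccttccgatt
Cxcl12: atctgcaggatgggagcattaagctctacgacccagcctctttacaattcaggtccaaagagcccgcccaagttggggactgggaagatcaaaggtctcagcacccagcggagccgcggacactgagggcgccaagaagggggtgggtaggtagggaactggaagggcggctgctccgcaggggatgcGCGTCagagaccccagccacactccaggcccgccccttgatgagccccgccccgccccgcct
Ccl25, outer start: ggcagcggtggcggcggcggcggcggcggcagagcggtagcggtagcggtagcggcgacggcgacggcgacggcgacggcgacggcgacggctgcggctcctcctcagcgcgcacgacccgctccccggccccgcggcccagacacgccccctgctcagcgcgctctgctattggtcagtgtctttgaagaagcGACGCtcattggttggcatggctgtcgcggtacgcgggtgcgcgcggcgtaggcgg
Ccl25, inner start: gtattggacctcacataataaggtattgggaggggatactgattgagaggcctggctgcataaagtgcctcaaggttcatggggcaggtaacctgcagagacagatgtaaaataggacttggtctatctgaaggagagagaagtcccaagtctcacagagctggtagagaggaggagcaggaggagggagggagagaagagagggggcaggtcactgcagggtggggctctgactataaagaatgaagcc
Tbata: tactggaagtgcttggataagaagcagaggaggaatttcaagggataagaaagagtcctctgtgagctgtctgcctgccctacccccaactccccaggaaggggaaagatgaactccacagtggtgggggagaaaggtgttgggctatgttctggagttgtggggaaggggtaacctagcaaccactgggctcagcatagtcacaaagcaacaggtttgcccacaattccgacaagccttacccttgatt

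In *Psmb11* the motif letters lie 62 and 239 bases before the start, in *Cxcl12* 62 bases and in *Ccl25* 56 bases before the outer start. The inner *Ccl25* window and those of *Tbata*, *Ackr4*, *Dll4* and *Ly75* do not contain these letters. A match is a run of letters and not a shown site of binding, and the promoter windows do not divide the genes as the gates did: *Ccl25* and *Tbata* differed in the motif and moved together, while *Psmb11* and *Ccl25* share it and parted between gates.

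Blocking RANKL depletes mature medullary epithelium, so the next comparison asks how the 8 genes stood at each time after it. Each time after anti-RANKL is 1 library and single times were not tested, so genes are described by whether they passed a fold of 2. The description of the anti-RANKL week 2 sample names the table of its isotype control, and the table listed under each sample was used, so the week 2 values rest on that assignment. In all *Ptprc*-negative cells, 4 genes passed upward at week 2 over isotype week 2, against 2.84% of all genes upward and 4.56% downward. They were *Cxcl12* (2.02 against 0.463 UMIs per 10000, log2 1.92), *Psmb11* (0.651 against 0.148, 1.60), *Prss16* (1.67 against 0.552, 1.44) and *Ackr4* (0.394 against 0.130, 1.10). The count was 2 against the other isotype control, 2 with a pseudocount of 0.5 and 0 on means of the deposited ln values. At week 4, over the mean of the controls, the same 4 passed upward (*Cxcl12* 2.05, *Psmb11* 1.76, *Ackr4* 1.28, *Prss16* 1.11), against 4.17% upward and 7.58% downward. At week 6, *Cxcl12* (1.66), *Ackr4* (1.37) and *Psmb11* (1.01) passed upward and *Ccl25* (-1.01) downward, against 2.98% upward and 4.68% downward. At week 10 no gene of the 8 passed over isotype week 10, where 0.321% of all genes passed upward and 0.0535% downward. Share of cells in each gate differed as well: the *Aire* gate held 4.48% of cells at week 2 against 38.4% in its control, and 36.6% at week 10 against 42.7%.

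Within the neither gate, the change in gate shares is removed in part. *Cxcl12* stood at 2.91 UMIs per 10000 at week 2 (exact 95% counting interval 2.75 to 3.08), 5.95 at week 4, 3.32 at week 6 and 1.89 at week 10, with isotype controls at 0.843 (0.779 to 0.911) and 1.59 (1.47 to 1.71). *Ackr4* stood at 1.01 (0.912 to 1.11), 1.26, 0.924 and 0.254 at the same times, with controls at 0.305 (0.267 to 0.346) and 0.266 (0.220 to 0.320). Both were above both controls at weeks 2, 4 and 6, and at week 10 *Cxcl12* was above both controls and *Ackr4* below both. These intervals cover counting error only, and the controls differed from each other by more than that for *Cxcl12*. For *Psmb11* the 4 values were 0.533, 1.16, 0.718 and 0.610 with controls at 0.234 and 0.640, so weeks 4 and 6 lay above both controls. *Prss16* had 1.73, 2.51, 1.82 and 1.91 against 0.617 and 1.92, and only week 4 exceeded both.

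By fold in the neither gate, 3 of the 8 genes passed upward at week 2 (*Cxcl12* log2 1.67, *Ackr4* 1.45, *Prss16* 1.35), against 2.3% of all genes upward and 3.17% downward, and *Psmb11* was at 0.92. At week 4, over the mean of the controls, 4 passed upward (*Cxcl12* 2.26, *Ackr4* 1.82, *Psmb11* 1.34, *Prss16* 1.12), against 4.63% upward and 7.93% downward. Without isotype week 2 among the controls, *Psmb11* (0.77) and *Prss16* (0.37) no longer passed at week 4, while *Ackr4* and *Cxcl12* did. At week 6, 2 passed upward (*Cxcl12* 1.44, *Ackr4* 1.41), against 3.06% upward and 5.79% downward, and *Ccl25* was at -0.78. Without isotype week 10 among the controls, *Prss16* (1.42) and *Psmb11* (1.29) also passed at week 6, and without isotype week 2 *Ccl25* passed downward (-1.06). At week 10 none passed, against 0.981% upward and 0.143% downward. Set against isotype week 2 in place of week 10, 3 passed upward at week 10, where 58 of 11216 genes passed upward and 81 downward. These comparisons share control libraries. Median log2 fold of the 8 was 0.74 at week 2, 0.85 at week 4 and 0.51 at week 6, against 0.04, -0.03 and -0.10 over all genes. Weeks 2 and 10 each have a library of both antibodies, so treatment was also fitted over these 4 libraries with the week as a block, at 1 residual degree of freedom. In the neither gate limma called 0 of the 8 genes and 0% of all 11216 genes (218 higher and 236 lower at an unadjusted p under 0.05), with *Cxcl12* at 0.96 (SE 0.40, limma adjusted p = 0.869) and *Ackr4* at 0.70 (SE 0.42, limma adjusted p = 0.869). In all *Ptprc*-negative cells it again called 0 of the 8 and 0% of all genes (118 higher and 110 lower at an unadjusted p under 0.05).

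The controls differed from each other in the proteases. In the neither gate, isotype week 10 over isotype week 2 was at a log2 fold of 1.49 for *Prss16* and 1.15 for *Psmb11*, 2 genes past the fold, against 0.303% of all genes upward and 1.65% downward. In all *Ptprc*-negative cells none of the 8 passed between the controls (0.152% of all genes upward, 0.731% downward). Mice at those times were 12 and 4 weeks old, and age and library cannot be told apart. Set against isotype week 10 in place of week 2, anti-RANKL week 2 was at -0.14 for *Prss16* and -0.22 for *Psmb11*, while *Ackr4* was at 1.60 and *Cxcl12* at 0.84. The week 2 fold of the protease genes thus depended on the control, and *Ackr4* passed the fold against either.

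At weeks 2, 4 and 6 *Ackr4* and *Cxcl12* lay above both controls in the neither gate and its medullary markers below both. The part of this medullary content in their values was not tested. Medullary markers summed in the neither gate to 3.21, 1.79, 3.54 and 6.79 UMIs per 10000 at weeks 2, 4, 6 and 10 after anti-RANKL and to 6.98 and 7.55 in the controls. At week 10 *Ackr4* and this sum were both below both controls. Both *Cxcl12* and the sum were higher in isotype week 10 than in isotype week 2, so the values did not run opposite throughout. The myeloid and dendritic markers also differed at week 2, at 21.8 against 12.0 in isotype week 2, through Lyz2 (13.4 against 2.69), with the other 4 markers lower at week 2, and the part of this in the week 2 folds was not tested. When every cell with any *Aire* was placed in the *Aire* gate, the week 2 control rose to 0.804 UMIs per 10000 of *Ackr4* and 2.04 of *Cxcl12*, and the week 2 log2 folds became 0.60 and 0.77, below the fold of 2. At week 4 *Cxcl12* still passed (1.17) and *Ackr4* did not (0.85), and at week 6 neither did (0.62 and 0.68). In that setting *Ccl25* passed downward at weeks 2 (-1.28) and 6 (-1.25). Fewer cells of a kind in the gate and less RNA per cell cannot be told apart in these sums.

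**Figure D5:**
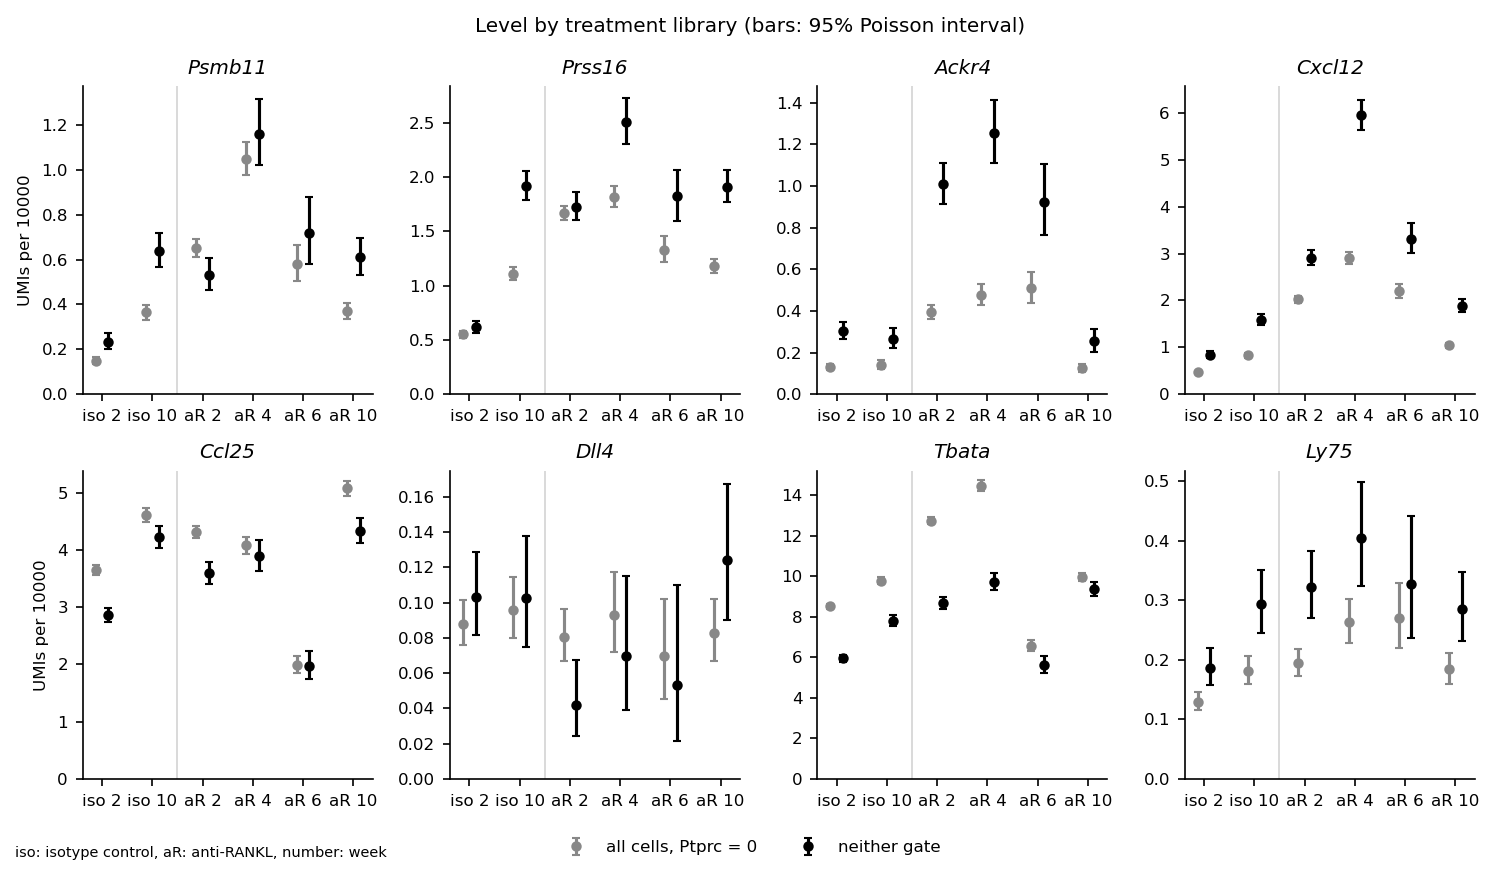
UMIs per 10000 of each of the 8 genes in all *Ptprc*-negative cells and in the neither gate of the isotype and anti-RANKL libraries, by week after antibody, with exact 95% counting intervals. In the neither gate *Cxcl12* and *Ackr4* lie above both isotype controls at weeks 2, 4 and 6 after anti-RANKL. At week 10 *Cxcl12* (1.89) still does there and *Ackr4* (0.254) does not, whereas *Psmb11* and *Prss16* differ between the controls themselves.

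Treatment also went with *Ccl25* and *Tbata* inside the other gates, comparisons that were added after values had been seen. In the *Aire* gate *Ccl25* stood at 21.1 UMIs per 10000 at week 2 after anti-RANKL (53 cells) and at 22.3 at week 4 (20 cells), against 5.09 and 6.11 in the controls. *Tbata* stood at 27.1 and 26.2 against 12.1 and 12.7. At week 6 these values were not raised: *Ccl25* stood at 3.56, below both controls, and *Tbata* at 12.7. At week 2 these 2 genes passed the fold upward (log2 2.03 and 1.16), where 1.64% of all genes passed upward and 1.84% downward. At week 4, 5 genes passed upward, *Cxcl12* (2.35), *Ccl25* (1.98), *Prss16* (1.54), *Ackr4* (1.44) and *Tbata* (1.08), where 5.06% passed upward and 7.83% downward. The *Cxcl12* and *Ackr4* values there rest on 14 and 4 UMIs. At week 6 *Cxcl12* (2.24) and *Ackr4* (1.33) passed upward, where 2.79% passed upward and 2.41% downward. At week 2, 1 cell held 30.1% of the *Ccl25* UMIs of the *Aire* gate and at week 4 1 of the 20 cells held 34.2%.

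In the *Ccl21a* gate *Tbata* stood at 14.0 UMIs per 10000 at week 2 and 16.6 at week 4 after anti-RANKL, against 3.95 and 6.00 in the controls, and at week 6 at 4.99, between them. At week 2, *Tbata* (log2 1.80), *Psmb11* (1.65) and *Ccl25* (1.14) passed upward, 3 of the 8 where 0.419% of all genes passed upward and 1.25% downward. The same genes passed at week 4, *Tbata* at 1.75, *Psmb11* at 1.55 and *Ccl25* at 1.28, where 1.05% passed upward and 1.22% downward. These counts rested on the settings: with a pseudocount of 0.5 they were 1 and 2, on means of the deposited ln values 0 and 1, and with *Ccl21a* above 5 they were 1 and 1. At week 10 no gene of the 8 passed in the *Ccl21a* gate, where 0.856% passed upward and 0.544% downward, or in the *Aire* gate, where 0.187% and 0.178% did. Between the controls none of the 8 passed in the *Ccl21a* gate (0.366% upward, 0.544% downward) or in the *Aire* gate (0.348% and 0.303%). *Cxcl12* in the *Ccl21a* gate was within 1.10 to 2.29 UMIs per 10000 in all 7 libraries.

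In the lineage tracing library, ZsGreen RNA marks cells with past *Aire*-driven Cre, and 98 of 108 *Aire*-gate cells held it, as did 174 of 287 neither-gate cells. Of neither-gate cells with *Ackr4*, 31 of 73 held ZsGreen (42.5%, exact 95% interval 31.0% to 54.6%), against 66.8% of those without *Ackr4*, at median depths of 7839 and 9321 UMIs. For *Cxcl12* it was 47 of 110 (42.7%, 33.3% to 52.5%) against 71.8%. For *Psmb11* (60.0% against 60.7%) and *Prss16* (58.6% against 61.9%) the shares lay closer together. Levels were lower in the neither-gate cells with ZsGreen than in those without for *Psmb11* (0.499 against 1.13 UMIs per 10000), *Prss16* (1.52 against 4.14), *Ackr4* (0.381 against 1.03) and *Cxcl12* (1.56 against 4.21). In the *Ccl21a* gate the levels went the other way, for *Psmb11* (0.662 against 0.178), *Prss16* (1.41 against 0.591), *Ackr4* (0.205 against 0.166) and *Cxcl12* (1.90 against 1.23), and ZsGreen was held by more of the cells with *Ackr4* (47.4% against 35.1%) or *Cxcl12* (42.7% against 30.0%) than of those without. The levels of the proteases rest on few cells. In the *Ccl21a* gate 7 of 845 cells held 56.5% of the *Psmb11* UMIs and 16 held 52.6% of those of *Prss16*. In the neither gate 6 of 287 held 59.6% and 13 held 73.2%. In the neither gate, by share of cells, *Tbata* went the other way (67.2% against 49.5%), with deeper cells (11422 against 6506 UMIs). In 69 cells with *Ptprc*, at a median of 12350 UMIs, 63.8% held ZsGreen. Most cells with *Ptprc* in the series also held *Epcam*, so they give no clean background for ZsGreen, and these shares are not read as lineage. ZsGreen levels were 0.837 UMIs per 10000 in cells with *Ackr4* and 4.08 in those without.

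Genes around these 8 in role were tested in the same fit. Against backgrounds of 22.1% of all genes called higher and 10.4% lower in the neither gate than in the *Aire* gate, of 8 proteasome genes 1 was higher (*Psmb9*, 0.48) and 3 were lower, the immunoproteasome subunit gene *Psmb10* (-0.90) and the activator genes *Psme2* (-0.79) and *Psme1* (-0.41), with a median of -0.11 against 0.12 over all genes. *Psmb11* was thus higher in a gate where *Psmb9* was also higher and *Psmb10*, *Psme1* and *Psme2* were lower. *Psmb8* (0.13, limma adjusted p = 0.417) was not called. Of 10 companions in cortical epithelium, 5 were higher, among them *Ctsl* (2.3), the cathepsin L gene, and the cytokine genes *Kitl* (0.82) and *Il7* (0.68), and 2 were lower, *Cd83* (-0.71) and *Foxn1* (-0.66), with a median of 0.21. *Enpep*, the gene of the cortical marker Ly51, was at 0.05 (SE 0.19, limma adjusted p = 0.857). All these are log2 differences from limma.

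Of 6 tested Notch genes besides *Dll4*, 3 were higher in the neither gate than in the *Aire* gate, the ligand genes *Jag1* (1.51), *Dll1* (0.96) and *Jag2* (0.61), and none was lower (median 0.43). Of 6 other thymic chemokine genes none was higher and 4 were lower, *Ccl17* (-1.54), *Ccl19* (-1.54), *Cxcl9* (-1.24) and *Cxcl10* (-1.14), with a median of -1.19. *Ccl25* therefore stood on the side of these chemokines and *Cxcl12* opposite to them. Of 5 receptor and scavenger genes only *Ccr7* passed the filter on low values, and its difference was -0.12 (SE 0.26, limma adjusted p = 0.772). The receptor genes of the ligands described here, *Cxcr4* and *Ccr9*, were below that filter.

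Against the *Ccl21a* gate the same lists gave 1 higher and 0 lower of 8 proteasome genes, 2 and 3 of 10 companions, 1 and 0 of 6 Notch genes and 3 and 2 of 6 chemokine genes, where 13.7% of all genes were called higher and 7.22% lower. Among companions *Ctsl* (-1.47) and *Il7* (-1.13) were now lower in the neither gate and *Cd83* (0.95) and *Kitl* (0.67) higher. *Ccr7* (1.26), *Ccl5* (2.16), *Ccl22* (1.47) and *Ccl17* (1.05) were higher there, and *Ccl19* (-1.18) and *Cxcl10* (-0.98) lower. In the *Trpm5* gate against the neither gate, 5 of 8 proteasome genes, 5 of 10 companions, 3 of 6 Notch genes and 5 of 6 chemokine genes were lower, and 2 companions were higher, where 16.1% of all genes were called lower and 17.3% higher. Against the *Aire* gate the *Trpm5* gate was lower in 4, 3, 1 and 6 genes of these lists and higher in 0, 2, 1 and 0, where 18.3% of all genes were called lower and 32.8% higher.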

How the data were processed

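Per the labels and methods, the authors sorted the cells after Percoll enrichment, made 10x libraries, sequenced them on a HiSeq instrument, aligned and counted with Cell Ranger 2.2.0 (mm10) and filtered and normalized in Seurat 2.3.4. The deposited values are natural log values of 1 plus UMIs per 10000 UMIs of the cell. Whole UMI counts were recovered from them in every cell (tolerance 0.001) and summed by gate and library into 28 pools. The 10758 cell columns of the combined tables were not used. Libraries held 730 to 1475 cells and 3857876 to 22197691 UMIs, and pairs shared 0 to 7 cell barcodes.

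Pools were compared with limma 3.58.1 (R 4.3.3) on log2(UMIs per 10000 + 0.1), with the library as a term, for 11216 genes with a mean of at least 0.05 per 10000, two-sided and with Benjamini-Hochberg adjustment. Fold changes of sparse genes are understated on this scale. The p-values measure the spread between pooled libraries that differ in treatment. Tested on simulated data for the neither and *Aire* gates (11216 genes, 200 changed), the step recovered 90% of genes changed by a log2 of 1 and 100% at 2. Python 3.11.15 with numpy 2.4.6, scipy 1.17.1 and pandas 2.3.3 served for the rest. Thinned shares are expected values, computed without random draws.

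All 8 genes are named, with the 3 genes most like each (some are not reported here), and genes of the lists by size of difference. The members and lists were chosen with earlier results of these data known. The treatment comparisons in the *Aire* and *Ccl21a* gates, the reference without *Epcam*, the split by *Psmb11*, the fit with week as a block and the comparison with the other isotype control were chosen after values had been seen. Promoter windows are from RefSeq (GRCm38.p6), and gene positions from GENCODE annotation of GRCm38.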

Additional observations from a re-analysis of the deposited data

Results flagged for a closer look

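The fold after anti-RANKL differed between week 2 and week 10 for 3 results, without a test, since each week is 1 library against 1 control. In all *Ptprc*-negative cells the log2 fold of *Ackr4* was 1.21 greater at week 2 than at week 10. In the neither gate it was 1.5 greater for *Ackr4* and 1.35 greater for *Prss16*, and in each case the fold was above 0 at week 2 and just below 0 at week 10. Of these, the *Prss16* difference rests on the low level in isotype week 2.

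Cells with *Ptprc*, outside every comparison of gates, carried more RNA of most of the genes than the neither gate did when all libraries were summed. Over all libraries their level was 1.34 UMIs per 10000 of *Psmb11* against 0.554, 3.71 of *Prss16* against 1.60, and 7.69 of *Ccl25* against 3.33. *Tbata* (12.9 against 7.15), *Ly75* (0.338 against 0.282) and *Dll4* (0.0862 against 0.0845) were closer, and *Ackr4* and *Cxcl12* were lower. The spread between libraries was wide: *Psmb11* ran from 0 at anti-RANKL week 10 to 8.46 at week 6, where there were 11 such cells, and *Prss16* from 0.224 to 26.4 in the same libraries, and *Prss16* was lower in cells with *Ptprc* than in the neither gate at anti-RANKL week 10 (0.224 against 1.91), at week 4 (1.66 against 2.51) and in the lineage tracing library (1.49 against 2.31). In the 41 of them without *Epcam* the levels of *Psmb11*, *Prss16* and *Ccl25* were 0.122, 0.245 and 0.367. Where the *Ptprc* RNA in the *Epcam*-positive cells comes from was not tested.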

How the results depend on the processing

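Of the counts of the 8 genes recomputed under an alternative, 115 stayed within 1.5 times of the value reported and 32 did not. The causes were not tested, except that some settings use fewer samples or genes (*Dll4* was below the filter on means of ln values, which left 7 of the 8). For neither minus *Aire* the count of 7 became 2 with isotype and lineage tracing libraries only (fewer samples) and was 6 to 7 on leaving out a library. For neither minus *Ccl21a* the count of 1 became 2 on means of the deposited ln values, with cells counted in every gate they pass, with *Trpm5* above 1, with under 2 T-lineage markers and without the *Ptprc* filter. It became 3 with *Aire* above 0 and with *Ccl21a* above 5, and 4 with pools weighted by cells, and was 1 without any single library. In the main setting 1534 of all genes were called higher and 810 lower. These counts were 1499 and 627 with *Aire* above 0 and 1724 and 784 with *Ccl21a* above 5. With pools weighted by cells they were 3224 and 1819. For *Trpm5* minus neither the count of 4 became 1 with isotype and lineage tracing libraries only and was 2 to 6 on leaving out a library. For *Trpm5* minus *Aire* the count of 5 became 3 with those libraries only and 3 on ln values, and was 5 without any single library. Where no count over all genes stands beside a count of the 8, here and below, the move was not set against that background.

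For anti-RANKL week 2 in all cells, 4 became 2 against the other isotype control, 2 with a pseudocount of 0.5 and 0 on ln values, and in the neither gate 3 became 1, 1 and 0, then 1 with *Aire* above 0 (*Ccl25*, lower, and none higher) and 5 with *Ccl21a* above 5. For week 10, 0 became 1 in all cells and 3 in the neither gate against the other control. For week 4 in the neither gate, 4 became 2 with a pseudocount of 0.5, 1 on ln values and 1 with *Aire* above 0, and was 2 to 4 without 1 control. For week 6, 2 became 1, 1 and 1 (the last being *Ccl25*, lower), then 4 without the *Ptprc* filter, and was 3 (2 higher and *Ccl25* lower) to 4 without 1 control. In the *Aire* gate, 2 at week 2 became 4 with a pseudocount of 0.02, 1 on ln values and 4 with *Aire* above 0, 5 at week 4 became 2 on ln values, and 2 at week 6 became 1 with a pseudocount of 0.5, 0 on ln values and 4 with *Aire* above 0. In the *Ccl21a* gate, 3 at week 2 became 1 with a pseudocount of 0.5, 0 on ln values and 1 with *Ccl21a* above 5, and 3 at week 4 became 2, 1 and 1. Both became 2 with *Aire* above 0. *Prss16* in the neither gate at week 2 reversed to -0.14 against the other control. Of the single genes, 940 values kept their side and direction, 132 moved, 28 gained and 25 lost a call.

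The replicate numbers of the labels do not pair treatment groups. Pairing the libraries of the same week as a replicate block, added after values had been seen, gave 0 of the 8 genes called over weeks 2 and 10 in the neither gate and in all cells, as did the fit without the block. Gates were compared within each library. Depth limits *Dll4* most, with 7 to 79 UMIs in the neither gate of a library.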
